A study of Mus musculus with 10 samples.

Results

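The 36 genes described here are used to describe microglia, the resident macrophages of the brain, in their resting and their activated states. They include complement genes and lysosomal proteases that these cells make. Not all are particular to microglia in whole cortex, as said below for Cd9, Ctsd and Ctsb. The 36 were taken by name from the gene tables of 10 cortex libraries, in which they are 36 of 24972 listed genes. Of the 36, 31 passed the filter on low counts and stood among the 14378 genes tested for a difference between genotypes. By role they comprised 10 homeostatic genes, 5 genes shared by myeloid cells, 8 activation genes, 5 complement genes, 5 lysosomal genes and 3 genes of antigen presentation and border macrophages.

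The study compared Atad3 nKO mice with control littermates at 2.5 months of age. Atad3a encodes an ATPase of the mitochondrial inner membrane. All animals were C57BL/6 males, perfused with PBS before the cortex was taken and frozen, with 5 libraries per genotype. The label nKO is not spelled out, and neither the deleted exons nor a Cre driver is named, so the cell type that lost Atad3a is not stated in the sources used here. The genotype label of the control group is Atad3 control, without a further allele.

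Microglia survey the brain through purinergic, chemokine and growth factor receptors, and this resting state is held by transcription factors such as Sall1 and Irf8. In many mouse models of neurodegeneration they lower these genes and, through the lipid receptor Trem2 and its adaptor Tyrobp, turn on a disease-associated programme that includes Cst7, Itgax, Clec7a, Lpl and Spp1. They are also the main source in the brain of C1q, the protein that starts the classical complement pathway and tags synapses and debris, and their lysosomes are rich in cathepsins, the proteases that digest what they engulf.

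The libraries held 14812639 to 24161361 estimated counts, of which the 36 genes took between 0.116% and 0.138%. Counts below are given as CPM (counts relative to the library size as scaled by TMM) to compare libraries. The deposited TPM, which divide by effective length, are used to compare genes. Atad3a itself stood at 23.7 ± 1.87 CPM in controls (SD, n = 5) against 11.5 ± 1.97 CPM in nKO (SD, n = 5), without overlap. It was 1 of 2 genes past a 5% false discovery rate by edgeR's quasi-likelihood test with Benjamini-Hochberg adjustment, or 0.0139% of the genes tested, and both were lower in nKO. The cortex was whole tissue, so for every gene below fewer cells of a type and less RNA per cell cannot be told apart.

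None of the 31 tested genes passed that threshold, and their smallest adjusted p was 0.820. By the unadjusted p under 0.05 of the same edgeR fit, 3 of 31 stood out, against 5.65% of all tested genes: Cd9 was higher in nKO (3.36% of all genes were called in that direction), and Trem2 and Ctsd were lower (2.29% of all genes). The log2 fold change of nKO over control was above 0 for 17 genes and below 0 for 14, a share of 54.8% above 0 against 47.8% of all tested genes. Its median was 0.01 over the 31 genes and -0.01 over all tested genes. For 27 of the 31 genes the 95% interval lay within 1.5-fold of no change in either direction, as for 75.7% of all tested genes. The 4 genes whose intervals reached further were Cd9, Cd74, Trem2 and Sall1.

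**Figure D1:**
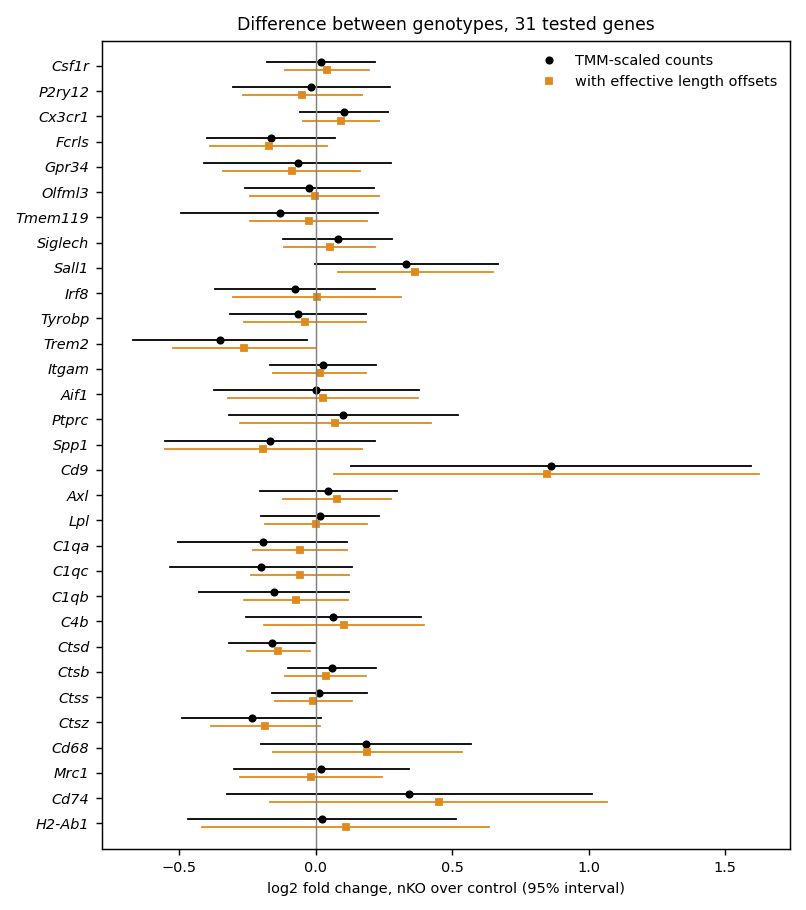
Log2 fold change of nKO over control for the 31 tested genes (points) with 95% intervals (lines), from TMM-scaled counts in black and with effective length offsets in orange, grouped by role. Most points lie near 0, and Cd9 lies farthest from it at 0.86 with a wide interval. With the offsets 19 of the 31 genes move nearer 0, among them the C1q genes, Tmem119 and Trem2, while Cd74, H2-Ab1 and Sall1 move away.

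The tissue carried the full set of resting microglial markers in both genotypes. Levels per length placed the colony stimulating factor receptor Csf1r, which microglia need to survive, at 55.0 ± 5.42 TPM in controls (SD, n = 5) against 58.8 ± 2.99 TPM in nKO (SD, n = 5). The purinergic receptor P2ry12, which steers microglial processes toward released ATP, stood at 56.4 ± 11.1 and 56.4 ± 4.84 TPM (SD, n = 5 each). These 2 receptors headed the homeostatic genes, followed by the fractalkine receptor Cx3cr1, and the transcription factors Sall1 and Irf8 closed the order at 3.60 to 5.26 TPM. Within that order P2ry12 and Csf1r did not differ beyond their spread, and the same held for Irf8 and Sall1 in controls.

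**Figure D2:**
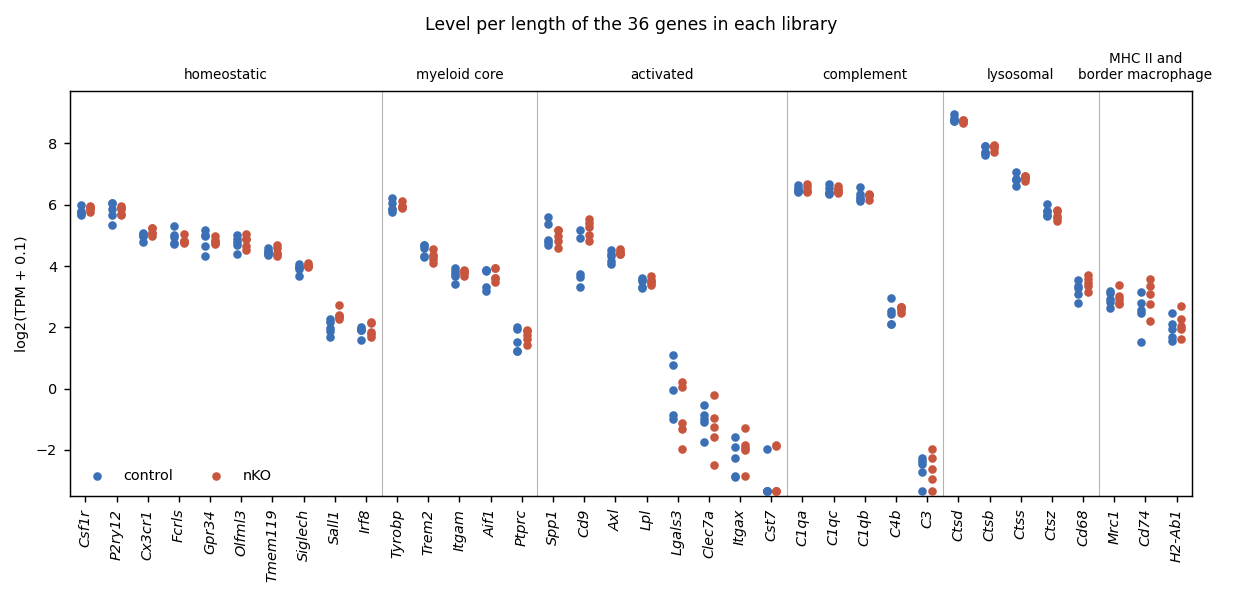
Level of each of the 36 genes in every library, as log2 of TPM plus 0.1, with control libraries in blue and nKO libraries in red and genes grouped by role. Ctsd stands highest, Cst7, C3, Itgax and Clec7a lie at or near the bottom in both genotypes, and the 2 genotypes overlap for every gene but Sall1.

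No resting marker passed the test, and their groups overlapped in counts. P2ry12 stood at 33.2, 40.2, 53.9, 44.4 and 51.6 CPM in controls 1 to 5 and at 40.0, 41.5, 38.5, 52.3 and 48.7 CPM in nKO 1 to 5. The groups overlapped over most of their range, and the log2 fold change was -0.02 with a 95% interval from -0.30 to 0.27 (SE 0.13). Without control 1, its lowest library, and nKO 4, its highest nKO library, the value was -0.18 (unadjusted p = 0.113 by edgeR). That downward shift was fixed by the choice of libraries. Cx3cr1, which receives the neuronal ligand fractalkine, stood at 43.6, 48.8, 48.4, 46.4 and 45.5 CPM in controls and 45.1, 49.0, 48.2, 53.2 and 54.6 CPM in nKO. The 2 highest values were nKO 4 and nKO 5, and the difference of 0.10 (SE 0.07; 95% interval -0.06 to 0.26) was the most precise of the homeostatic group. Csf1r stood at 83.2, 71.9, 67.7, 77.1 and 88.5 CPM in controls and 79.7, 82.2, 82.6, 66.0 and 83.1 CPM in nKO. Here nKO 4 lay well below the other 4 nKO libraries, which were close together, and the log2 fold change was 0.02 (SE 0.09).

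Tmem119, a membrane protein widely used to tell microglia from other macrophages, stood at 17.2, 10.6, 9.55, 10.8 and 12.6 CPM in controls and 10.9, 13.5, 10.6, 8.57 and 11.7 CPM in nKO. Control 1 was the highest library and nKO 4 the lowest, and the log2 fold change was -0.13 (SE 0.17). Per length the same gene showed no such extremes, at 20.5 to 24.2 TPM in controls and 20.1 to 25.5 TPM in nKO. The remaining homeostatic genes were the lectin Siglech at a log2 fold change of 0.08 (SE 0.09), the receptor Gpr34 at -0.07 (SE 0.16), the Fc receptor-like gene Fcrls at -0.16 (SE 0.11), the secreted protein Olfml3 at -0.02 (SE 0.11) and Irf8 at -0.07 (SE 0.14). Of the 10 homeostatic genes 4 were above 0 and 6 below, with a median of -0.02. Without control 1 and nKO 4 the value of Gpr34 was -0.26 (unadjusted p = 0.0661 by edgeR). These were its lowest control and its highest nKO library, so that downward shift was fixed by the choice of libraries.

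Sall1 was the homeostatic gene farthest from 0. This zinc finger factor helps to maintain the identity of microglia. It stood at 8.27, 5.46, 6.23, 8.43 and 7.87 CPM in controls and 9.09, 8.93, 11.6, 7.45 and 8.55 CPM in nKO, which overlapped. The log2 fold change was 0.33 (SE 0.16; edgeR unadjusted p = 0.052, adjusted p = 0.820). Per length the 5 nKO libraries, at 5.15, 5.07, 6.49, 4.707 and 4.90 TPM, all stood above the 5 controls, at 3.82, 3.15, 3.59, 4.706 and 4.40 TPM, with the nearest pair all but equal. It was the only one of the 31 genes without overlap in TPM, as 2.25% of all tested genes were in the higher direction and 2.56% in either. With the library's own effective lengths as offsets in the fit, the value was 0.37 (SE 0.13; edgeR unadjusted p = 0.0148, adjusted p = 0.485), beside 5.50% of all tested genes called higher at the unadjusted threshold under those offsets.

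**Figure D3:**
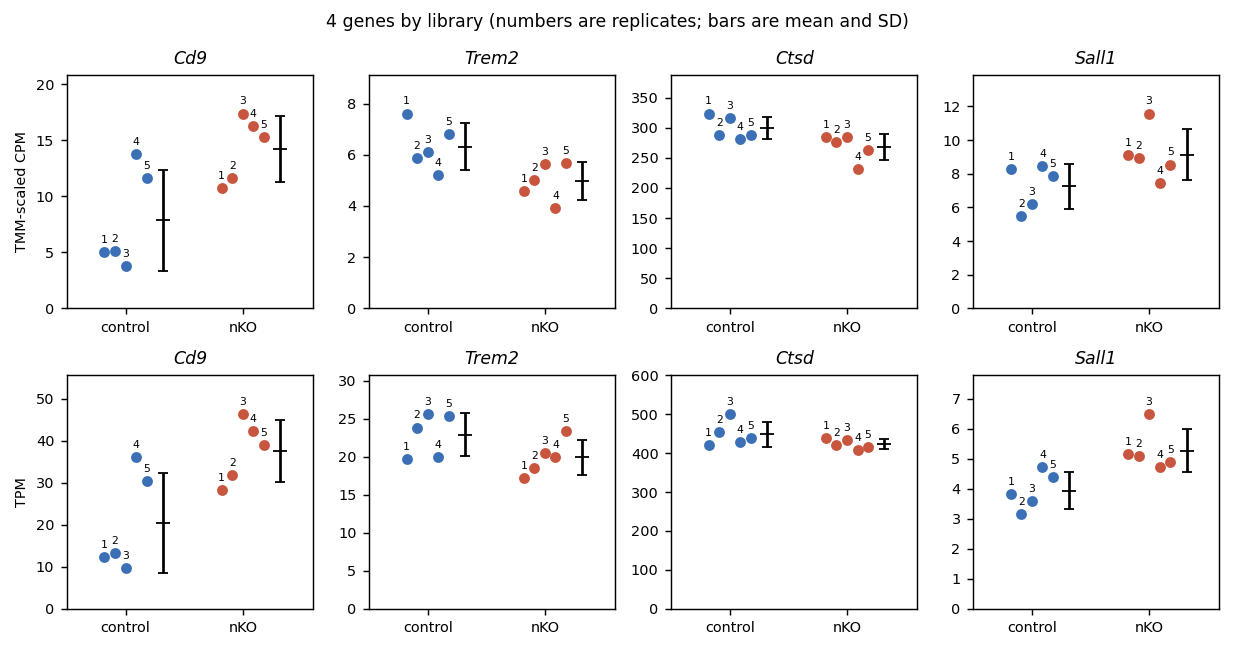
Level of Cd9, Trem2, Ctsd and Sall1 in each library, as TMM-scaled CPM in the upper row and TPM in the lower row, with replicate numbers beside the points and bars for the mean and SD (n = 5). Cd9 splits the controls into 3 low and 2 high libraries, Trem2 and Ctsd overlap between genotypes, and Sall1 overlaps in CPM and only just separates in TPM.

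Trem2 and Tyrobp form 1 signalling unit, since the lipid receptor Trem2 has no signalling tail of its own and depends on the adaptor Tyrobp. Trem2 (chromosome 17, 48346401 to 48352276, GRCm38) stood at 7.61, 5.87, 6.11, 5.21 and 6.79 CPM in controls and 4.57, 5.03, 5.64, 3.91 and 5.67 CPM in nKO. Control 1 was highest and nKO 4 lowest, and the ranges overlapped between 5.21 and 5.67 CPM. The log2 fold change was -0.35 with a 95% interval from -0.67 to -0.03 (SE 0.15; edgeR unadjusted p = 0.0338, adjusted p = 0.820). Per length the means were 22.9 ± 2.88 TPM in controls (SD, n = 5) against 19.9 ± 2.33 TPM in nKO (SD, n = 5). With effective length offsets the log2 fold change was -0.26 (SE 0.12; unadjusted p = 0.0514 by edgeR). Without control 1 and nKO 4, the highest and the lowest library of Trem2, it was -0.21 (unadjusted p = 0.158 by edgeR). That shift toward 0 was fixed by the choice of libraries. Leaving out control 1, control 5, nKO 1 or nKO 4 alone also took the unadjusted p past 0.05, to between 0.0711 and 0.0810.

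Tyrobp stood at 9.12, 7.81, 9.88, 8.08 and 9.31 CPM in controls and 8.72, 8.64, 8.67, 7.02 and 9.30 CPM in nKO. The ranges overlapped nearly throughout, with nKO 4 lowest, and the log2 fold change was -0.07 with a 95% interval from -0.31 to 0.18 (SE 0.12). Per length the adaptor exceeded its receptor in every library. The ratio of Tyrobp to Trem2 TPM was 2.73, 2.42, 2.91, 2.90 and 2.62 in controls and 3.61, 3.29, 3.00, 3.00 and 2.98 in nKO, or 2.72 ± 0.207 and 3.18 ± 0.277 (SD, n = 5 each). The 5 nKO ratios were all above the 5 control ratios. This ratio was chosen as a description with Trem2's difference known, so it carries no test.

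The promoter of Trem2 is shown because it holds a copy of GAGGAA, the core of the site bound by PU.1, the factor that myeloid genes depend on. The window runs from 250 bases before to 50 bases after the annotated start (chr17:48346151-48346450, plus strand, RefSeq on GRCm38.p6), and capitals mark the site, which here reads TTCCTC because the core lies on the other strand.
Trem2 promoter: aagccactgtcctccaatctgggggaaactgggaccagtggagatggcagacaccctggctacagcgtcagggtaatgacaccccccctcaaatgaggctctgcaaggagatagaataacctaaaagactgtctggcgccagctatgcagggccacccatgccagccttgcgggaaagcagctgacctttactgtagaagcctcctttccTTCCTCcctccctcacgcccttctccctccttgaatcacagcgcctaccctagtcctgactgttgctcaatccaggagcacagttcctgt
Among the genes described here 26 had an entry in that promoter table, and 14 of the 26 (53.8%) held GAGGAA or its reverse complement, against 31.3% of all 27025 genes in the table. The 14 were Siglech, Trem2, C1qb, C1qc, Itgam, Aif1, Cd68, Ctss, Axl, Clec7a, Spp1, Fcrls, Mrc1 and Ptprc. The E-box CACGTG, at the core of the element through which TFEB acts on lysosomal genes, occurred in 3 of the 26 (11.5%; P2ry12, Siglech and Ctsd) against 8.09% of all genes. Both strands were searched in each case. Tmem119, Csf1r, Gpr34, Tyrobp, C1qa, C4b, Cd74, H2-Ab1, Ctsb and Lpl were not searched.

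The other myeloid genes were close to 0. Itgam, the integrin chain of complement receptor 3 that binds C3 fragments, stood at a log2 fold change of 0.03 (SE 0.09) and between 20.8 and 27.1 CPM over the 10 libraries. Aif1, which encodes the cytoskeletal protein IBA1 used to stain microglia, had 0.00 (SE 0.17) and ranged from 2.93 to 4.51 CPM. Ptprc, the leukocyte phosphatase CD45, had 0.10 (SE 0.19) and ranged from 4.45 to 8.20 CPM.

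The 3 chains of C1q are encoded side by side on chromosome 4 (GRCm38), C1qb at 136880126 to 136886200, C1qc at 136889801 to 136892936 and C1qa at 136895916 to 136898844, and 1 copy of each is needed for the subunit that assembles into C1q. In counts all 3 had log2 fold changes below 0 that did not pass the test, and the same 2 libraries stood at the extremes. C1qa stood at 31.4, 18.5, 19.5, 18.6 and 19.9 CPM in controls and 19.2, 19.3, 19.7, 16.6 and 19.5 CPM in nKO. C1qb stood at 29.5, 20.8, 23.9, 19.1 and 20.2 CPM in controls and 22.1, 22.7, 19.7, 16.9 and 20.6 CPM in nKO. C1qc stood at 27.5, 17.0, 18.2, 15.9 and 17.0 CPM in controls and 19.3, 17.2, 17.0, 13.2 and 16.5 CPM in nKO. For each chain control 1 was the highest library and nKO 4 the lowest, and the other 8 libraries lay close together with both genotypes intermixed.

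The log2 fold changes were -0.19 (SE 0.14) for C1qa, -0.15 (SE 0.13) for C1qb and -0.20 (SE 0.15) for C1qc, with an edgeR adjusted p of 0.857, 0.860 and 0.860. Effective length, which Salmon computes per library from the fragments each position of a transcript can be expected to give, moved with these counts. For C1qa it was 859, 534, 513, 573 and 594 bases in controls and 605, 622, 609.9, 435 and 535 bases in nKO, for a transcript of 1082 bases. Control 1 and nKO 4 were again the extremes, so nKO 4 had 50.7% of the effective length of control 1. The same share was 49.3% for C1qc and 61.4% for C1qb.

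Per length, the C1q chains did not show these extremes. C1qa stood at 87.9, 92.7, 100.3, 85.7 and 90.1 TPM in controls and 86.2, 85.0, 87.8, 102 and 95.9 TPM in nKO. Here nKO 4 was the highest library and control 1 lay in the middle. The means were 91.4 ± 5.63 and 91.4 ± 7.35 TPM for C1qa, 78.9 ± 9.58 and 78.1 ± 4.39 TPM for C1qb, and 89.0 ± 8.59 and 88.9 ± 5.43 TPM for C1qc (SD, n = 5 each). Over the 10 libraries the coefficient of variation of C1qa was 20.0% in CPM and 6.75% in TPM, while only 13 of the 31 genes varied less in TPM than in CPM.

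With effective length offsets in the fit the log2 fold changes were -0.06 (SE 0.08) for C1qa, -0.07 (SE 0.09) for C1qb and -0.06 (SE 0.08) for C1qc. Without control 1 and nKO 4 the count-based values were 0.01, 0.01 and 0.03. These were the highest control and the lowest nKO library of each chain, so leaving them out raises the values by construction. The balance of the chains also held steady. C1qa made up 35.3 ± 1.03% of the summed TPM of the 3 chains in controls and 35.4 ± 1.95% in nKO, C1qb 30.4 ± 0.984% and 30.2 ± 1.28%, and C1qc 34.3 ± 0.464% and 34.4 ± 1.42% (SD, n = 5 each). Their summed level was 259 ± 23.6 TPM in controls and 258 ± 12.3 TPM in nKO.

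**Figure D4:**
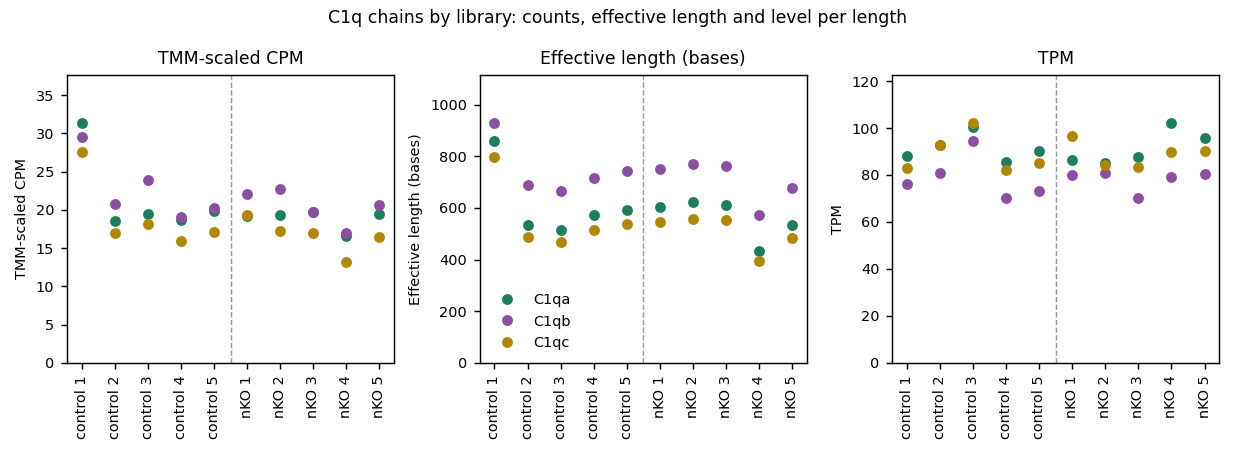
TMM-scaled CPM (left), effective length in bases (middle) and TPM (right) of the 3 C1q chains in each of the 10 libraries, with a dashed line between the genotypes. Control 1 is highest and nKO 4 lowest in both CPM and effective length, and the TPM values of the 2 genotypes lie in the same range.

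The base composition of these transcripts is part of what they share. The collagen-like stalk of each C1q chain repeats a motif that starts with glycine, and glycine codons begin with GG. Stretches of 120 coding bases from C1qc (chr4:136890442-136890561, minus strand) and C1qa (chr4:136896571-136896690, minus strand) are shown beside a stretch of Gpr34 (chrX:13639863-13639982, plus strand), the tested gene of lowest GC content, from the GENCODE annotation of GRCm38. They are the stretch of highest GC content within a coding exon of C1qc (72.5%) and C1qa (67.5%) and of lowest GC content in Gpr34 (30.8%), and capitals mark G and C.
C1qc: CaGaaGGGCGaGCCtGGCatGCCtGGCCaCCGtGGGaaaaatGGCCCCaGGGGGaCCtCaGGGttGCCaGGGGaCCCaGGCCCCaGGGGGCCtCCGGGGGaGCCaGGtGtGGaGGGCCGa
C1qa: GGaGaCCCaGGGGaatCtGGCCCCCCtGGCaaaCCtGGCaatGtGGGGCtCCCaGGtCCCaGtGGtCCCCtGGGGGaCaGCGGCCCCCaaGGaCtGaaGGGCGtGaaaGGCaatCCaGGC
Gpr34: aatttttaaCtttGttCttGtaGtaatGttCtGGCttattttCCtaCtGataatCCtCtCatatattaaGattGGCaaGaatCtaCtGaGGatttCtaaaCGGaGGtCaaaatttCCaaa
Over the whole transcript GC content was 57.5% for C1qc, 59.5% for C1qa and 36.4% for Gpr34. In nKO 4 the effective length of Gpr34 was 117% of that in control 1, the opposite direction to C1qa and C1qc. By this ratio C1qc and C1qa were picked as the lowest of the tested genes and Gpr34 as the highest. Their opposite directions were therefore fixed in advance. Across the 31 tested genes the rank correlation of GC content with the ratio of effective length in nKO 4 to that in control 1 was -0.97, and that of transcript length with the ratio was 0.44. These are correlations across genes of the same libraries, given as descriptions, since genes are not replicates. Effective length is computed and not measured. The sources do not state whether base composition entered that computation, so the correlation with GC content may be built in.

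Of the 31 genes 6 had an effective length in nKO 4 under 0.7 of that in control 1, namely C1qa, C1qb, C1qc, Trem2, Tmem119 and H2-Ab1. Over all tested genes the ratio had a median of 0.968, with 0.532 to 1.15 between the 5th and the 95th percentile, and 3.83% of genes lay at or below C1qa. For Tmem119 the log2 fold change was -0.02 with effective length offsets and 0.10 without control 1 and nKO 4. For H2-Ab1 the offsets took it away from 0, from 0.02 to 0.11.

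**Figure D5:**
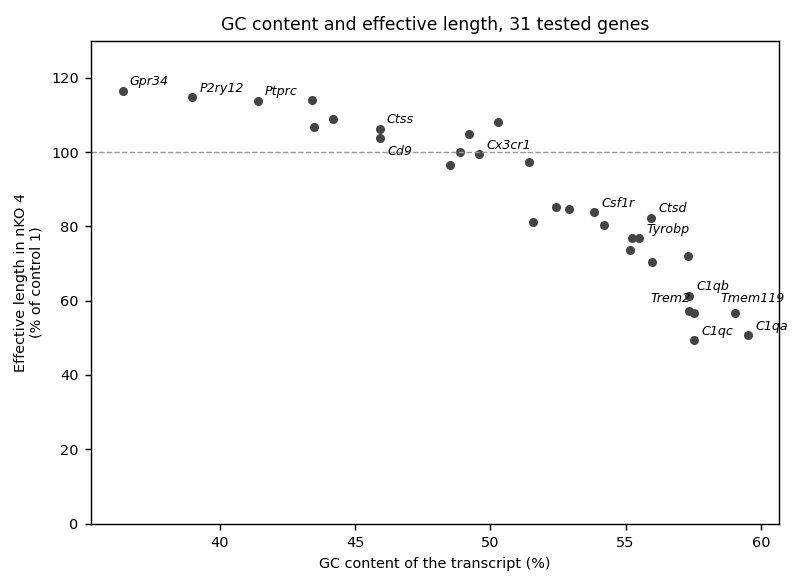
Effective length in nKO 4 as a percent of that in control 1 (vertical axis) against the GC content of the transcript in percent (horizontal axis) for the 31 tested genes, with some genes named. Gpr34 and P2ry12 lie above 100% and the C1q chains, Trem2 and Tmem119 lie near or under 60%.

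In counts and in effective length alike, control 1 was highest and nKO 4 lowest for C1qb and C1qc. In TPM neither library was an extreme for these genes. Whether their promoters play a part in the counts was not tested, and the sequences are given as a description. The promoters of C1qb (chr4:136886151-136886450) and C1qc (chr4:136892865-136893164) are both on the minus strand and from RefSeq on GRCm38.p6. Each holds 1 GAGGAA core or its reverse complement, in capitals.
C1qb promoter: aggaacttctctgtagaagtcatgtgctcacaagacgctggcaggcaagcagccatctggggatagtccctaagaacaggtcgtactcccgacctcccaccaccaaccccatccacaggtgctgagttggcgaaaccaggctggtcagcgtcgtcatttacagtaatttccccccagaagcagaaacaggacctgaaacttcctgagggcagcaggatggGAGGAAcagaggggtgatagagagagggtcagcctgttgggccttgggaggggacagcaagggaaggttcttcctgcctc
C1qc promoter: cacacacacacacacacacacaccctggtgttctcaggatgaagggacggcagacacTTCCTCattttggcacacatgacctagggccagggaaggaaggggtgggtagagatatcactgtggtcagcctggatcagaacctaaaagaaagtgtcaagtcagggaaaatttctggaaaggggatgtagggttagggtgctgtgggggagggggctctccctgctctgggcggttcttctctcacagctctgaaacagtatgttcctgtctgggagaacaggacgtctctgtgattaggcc

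The later complement components were either scarce or level. C3, the component on which all complement pathways converge, had 3.02, 3.02, 5.03, 0 and 2.01 estimated counts in controls and 2.01, 1.01, 0, 5.03 and 3.02 in nKO. A floor of 3 counts corresponds to 0.124 to 0.203 CPM in these libraries, so C3 was at or near the limit of detection in both genotypes and was not tested. C4b, which carries the classical pathway from C1 to C3, stood at 9.72, 9.63, 10.1, 7.84 and 14.5 CPM in controls and 11.7, 10.3, 11.8, 9.97 and 10.5 CPM in nKO. Control 5 was highest and control 4 lowest, so the nKO libraries lay inside the control range, and the log2 fold change was 0.07 (SE 0.15). C4b shares nearly all its sequence with its neighbour C4a, listed at 0.768 ± 0.315 and 1.01 ± 0.358 CPM (SD, n = 5 each), and how reads are divided between the 2 makes both uncertain. Over the 4 tested complement genes 1 was above 0 and 3 below, with a median of -0.17 in counts, -0.06 with effective length offsets and 0.02 without control 1 and nKO 4.

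Lysosomal proteases were the most abundant transcripts of the set. Per length Ctsd, an aspartic protease, led all 36 genes at 448 ± 31.997 TPM in controls and 423 ± 12.5 TPM in nKO, ahead of the cysteine proteases Ctsb at 221 ± 21.1 and 235 ± 13.8 TPM and Ctss at 114 ± 12.5 and 118 ± 5.84 TPM (SD, n = 5 each). Ctss is largely made by microglia in the brain, whereas Ctsd and Ctsb are used by lysosomes of all brain cells.

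Ctsd stood at 324, 288, 316, 282 and 288 CPM in controls and 284, 277, 284, 232 and 263 CPM in nKO. Control 1 and control 3 were highest and nKO 4 lowest, with overlap around 282 to 284 CPM. The log2 fold change was -0.16 with a 95% interval from -0.32 to -0.000495 (SE 0.07; edgeR unadjusted p = 0.0494, adjusted p = 0.820). With effective length offsets it was -0.14 (SE 0.05; unadjusted p = 0.0240 by edgeR), beside 4.19% of all tested genes called lower under those offsets. Without control 1 and nKO 4, the highest and the lowest library of Ctsd, it was -0.09 (unadjusted p = 0.167 by edgeR). That shift toward 0 was fixed by the choice of libraries. With single libraries left out the unadjusted p missed 0.05 without control 1, 2, 3 or 5 or nKO 4 or 5, at 0.0528 to 0.106.

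Ctsb stood at 418, 406, 378, 473 and 459.5 CPM in controls and 453, 441, 452, 402 and 476 CPM in nKO, with a log2 fold change of 0.06 (SE 0.07). Ctss stood at 49.3, 55.9, 64.7, 54.4 and 54.0 CPM in controls and 58.0, 58.4, 51.4, 56.7 and 56.6 CPM in nKO, with 0.01 (SE 0.08). The groups of both proteases overlapped nearly throughout, and the 95% intervals were -0.10 to 0.22 for Ctsb and -0.16 to 0.19 for Ctss. Ctsz, a carboxypeptidase, had -0.23 (SE 0.12; edgeR unadjusted p = 0.0692), at 19.7 to 26.1 CPM in controls and 16.3 to 23.3 CPM in nKO. Cd68, a membrane glycoprotein of phagocyte lysosomes that rises on activation, stood at 3.93, 3.93, 2.30, 3.57 and 3.81 CPM in controls and 3.35, 4.67, 4.51, 3.59 and 3.69 CPM in nKO. Control 3 was the one low library, and the log2 fold change was 0.18 (SE 0.18), or 0.058 without that library. The 5 lysosomal genes had 3 above 0 and 2 below, with a median of 0.01.

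Of the 8 activation genes 4 were at or near the limit of detection in both genotypes, and the other 4 were well detected. Cst7, a cystatin that is among the strongest markers of disease-associated microglia, was listed at 0 in 7 of the 10 libraries and at about 1 count in control 5, nKO 2 and nKO 3. Itgax, the integrin chain CD11c, had 1.01, 6.04, 4.03, 1.005 and 5.03 estimated counts in controls and 4.03, 8.05, 1.01, 4.02 and 4.02 in nKO. Clec7a, the beta-glucan receptor dectin-1, had 6.04, 8.05, 8.05, 5.03 and 3.02 counts in controls and 4.03, 3.02, 1.01, 12.1 and 5.03 in nKO. The ranges of each of these genes overlapped, and no fold was computed from so few counts.

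Lgals3, the lectin galectin-3, had 13.1, 13.1, 8.05, 3.02 and 3.02 counts in controls and 6.04, 7.04, 1.01, 2.01 and 2.01 in nKO. The 2 highest libraries were controls 1 and 2, and the sums were 40.2 counts in controls and 18.1 in nKO. It too fell under the count filter and was not tested. Cst7, Itgax, Clec7a, Lgals3 and C3 were the 5 of 36 genes without a test.

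Of the 4 tested activation genes, 3 showed values near 0. Lpl, a lipase that frees fatty acids from lipoproteins, stood at a log2 fold change of 0.02 (SE 0.10) and between 14.4 and 18.3 CPM. Axl, a receptor tyrosine kinase for the uptake of dying cells, had 0.05 (SE 0.12) and stood between 27.0 and 41.6 CPM. Spp1, which encodes the secreted phosphoprotein osteopontin, stood at 13.3, 13.7, 20.7, 14.3 and 23.5 CPM in controls and 11.6, 17.3, 15.3, 18.004 and 14.2 CPM in nKO. Its 2 highest libraries were controls, and the value was -0.17 (SE 0.18). It was -0.025 without control 5 and -0.32 without control 1 and nKO 4. Control 1 was the lowest control and nKO 4 the highest nKO library of Spp1, so leaving them out lowers the value by construction.

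Cd9 had the largest difference of the 31 genes. It encodes a tetraspanin, a membrane scaffold found in microglia and also in oligodendrocytes, endothelium and meninges. It stood at 5.07, 5.11, 3.77, 13.8 and 11.6 CPM in controls and 10.7, 11.6, 17.4, 16.2 and 15.3 CPM in nKO. Controls 1 to 3 lay below all other libraries, while controls 4 and 5 lay within the nKO range. The log2 fold change was 0.86 with a 95% interval from 0.13 to 1.59 (SE 0.33; edgeR unadjusted p = 0.0248, adjusted p = 0.820), and it ranged from 0.68 to 1.16 with each library left out in turn. The unadjusted p by edgeR then missed 0.05 without control 1, control 2, nKO 3 or nKO 4, at 0.0507 to 0.0580. Per length the means were 20.4 ± 11.9 TPM in controls and 37.6 ± 7.42 TPM in nKO (SD, n = 5 each), and the effective length was level, at 988 to 1033 bases in controls and 992 to 1039 in nKO.

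Cd63, a related tetraspanin of late endosomes and lysosomes, was also low in controls 1 to 3. It stood at 10.1, 11.5, 8.28, 16.2 and 14.1 CPM in controls and 15.4, 16.4, 17.9, 14.7 and 14.8 CPM in nKO, with a log2 fold change of 0.40 (SE 0.16; edgeR unadjusted p = 0.0266, adjusted p = 0.820). Those 3 libraries lay below every other library, while the other 7 did not keep the order they had for Cd9. Markers of the other cells that make Cd9 were summed beside it: 10 oligodendrocyte markers spanned 1570 to 2026 CPM in controls and 1594 to 1939 in nKO, 10 endothelial and mural markers 431 to 500.4 and 446 to 522, and 10 choroid plexus and meningeal markers 77.6 to 127 and 70.5 to 92.7. Their part in the Cd9 values was not tested.

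Homeostatic genes were then set against activation genes within each library, as the mean log2 CPM of the 10 homeostatic genes minus that of the 4 tested activation genes. The 4 were Lpl, Axl, Spp1 and Cd9, while Cst7, Itgax, Clec7a and Lgals3 did not enter. Whole cortex does not show which cells made these transcripts, so the contrast is no measure of microglia alone. This contrast was 0.27, 0.35, 0.45, 0.01 and -0.09 in controls and 0.10, 0.03, -0.18, -0.15 and 0.07 in nKO. Controls 1 to 3 were highest, and controls 4 and 5 lay within the nKO range. The means were 0.20 ± 0.23 and -0.03 ± 0.13 (SD, n = 5 each), a difference of -0.22. The homeostatic mean itself was 4.20 ± 0.07 in controls and 4.21 ± 0.07 in nKO on the log2 scale, and the activated mean was 4.001 ± 0.26 and 4.24 ± 0.15.

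The contrast rested on Cd9. Without it the values were -0.20 ± 0.11 (SD, n = 5) in controls against -0.17 ± 0.10 (SD, n = 5) in nKO, a difference of 0.03. With Trem2 and Tyrobp moved to the activated side the difference was -0.08. No test was made on this contrast, because the genes on its 2 sides were chosen with earlier results of these data known. With medians of -0.02 for homeostatic and 0.03 for activation genes, a joint fall of the first and rise of the second was not seen at this depth, and the scarce genes Cst7, Itgax and Clec7a allow no statement beyond their counts.

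Genes of antigen presentation and of macrophages at the brain's borders stood low. Cd74, the invariant chain of MHC class II, had a log2 fold change of 0.34 (SE 0.31) with a wide range of 0.984 to 4.32 CPM, and 0.13 without control 3, its lowest library. The class II chain H2-Ab1 had 0.02 (SE 0.23) at 0.752 to 1.35 CPM. Mrc1, the mannose receptor CD206 of perivascular macrophages, had 0.02 (SE 0.15) at 13.2 to 22.3 CPM. Among 10 other border macrophage markers 7 were tested, of which 5 were above 0, 2 below and 0 past 5%. Their summed level was 40.1 to 55.3 CPM in controls and 43.2 to 52.2 in nKO. The one at the smallest p was the hyaluronan receptor Lyve1 at 0.48 (SE 0.20; edgeR unadjusted p = 0.0355, adjusted p = 0.820).

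Of 20 markers of blood leukocytes and erythrocytes 5 were tested, with 1 above 0, 4 below and 0 past 5%. Their summed level was 14.6 to 28.4 CPM in controls and 8.42 to 21.4 CPM in nKO. The neutrophil genes S100a9 at -1.17 (SE 0.47) and S100a8 at -1.11 (SE 0.50) stood at 2.16 ± 1.62 and 1.63 ± 1.07 CPM in controls and 0.990 ± 0.366 and 0.781 ± 0.445 CPM in nKO (SD, n = 5 each). Their adjusted p was 0.820 by edgeR.

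Gene by gene, wider lists of the same biology gave the same picture of few differences, and 0 of their genes passed 5%. Of 25 further microglia genes 12 were above 0 and 13 below (median -0.01), and the lysosomal membrane protein Laptm5 had the smallest p at 0.42 (SE 0.18). Of 17 tested ligands and receptors through which microglia meet other cells 8 were above 0 and 9 below (median -0.01), led by the phagocytic receptor Mertk at 0.25 (SE 0.10). Of 10 tested inflammatory genes 7 were above 0 (median 0.03), and of 17 further damage-associated genes 9 were above 0 (median 0.00), led by the surface glycopeptide Cd52 at 0.58 (SE 0.23; unadjusted p = 0.0240 by edgeR). With effective length offsets Laptm5 stood at 0.47 (unadjusted p = 0.00821 by edgeR), Mertk at 0.23 and Cd52 at 0.56.

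Of 25 tested genes of the complement pathway and its regulators 19 were above 0 and 6 below (median 0.06), against 47.8% above 0 over all tested genes. The one at the smallest p was Cd59a, an inhibitor of the membrane attack complex, at 2.72 ± 0.462 CPM in controls and 3.74 ± 0.311 CPM in nKO (SD, n = 5 each). Its groups did not overlap, as for 1.38% of all tested genes, and its log2 fold change was 0.45 (SE 0.15; edgeR unadjusted p = 0.0119, adjusted p = 0.820).

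Of 40 further lysosomal genes 16 were above 0 and 24 below (median -0.05). Their summed level was 6154 to 6366 TPM in controls and 5898 to 6068 TPM in nKO, without overlap. In CPM the sums overlapped, at 4467 to 4904 in controls and 4249 to 4504 in nKO. The sums weigh abundant genes most, and Cst3 is among the 40. Of the other lists only that of 10 neuron markers had TPM sums without overlap. Those were higher in nKO, at 7736 to 8118 TPM against 6708 to 7661 TPM in controls. No test was made on any of these sums. The cathepsin inhibitor Cst3 had the smallest p of the lysosomal genes. It stood at 395 ± 88.8 CPM in controls and 308 ± 29.7 CPM in nKO (SD, n = 5 each). Its groups did not overlap, as for 1.38% of all tested genes in either direction. The nearest pair was all but equal, at 329.8 CPM in control 2 and 328.9 CPM in nKO 2. The log2 fold change of Cst3 was -0.36 (SE 0.13; edgeR unadjusted p = 0.0150, adjusted p = 0.820). With effective length offsets it was -0.31 (unadjusted p = 0.00209 by edgeR), beside 4.19% of all tested genes called lower under those offsets. Without control 1 and nKO 4, the highest and the lowest library of Cst3, it was -0.17, a shift toward 0 fixed by that choice. The lysosomal growth factor precursor Grn had 0.31 (SE 0.13; unadjusted p = 0.0300 by edgeR). With the offsets Grn had 0.38 (unadjusted p = 0.00291 by edgeR), beside 5.50% of all tested genes called higher under them.

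Among the 36 genes 11 had at least 2 annotated transcripts above a mean of 0.5 TPM. Shares of the gene's TPM are given as a description, since reads that fit several transcripts are divided by estimation. For Itgam the division was unstable: 1 of its 2 transcripts took from 0 to 82.4% over the controls and 7.89% to 100% over the nKO libraries. It was also unstable for Ptprc, whose main transcript took from 0 to 100% in both genotypes. The main Axl transcript took 49.7% to 100% over the controls and 100% in every nKO library. The main Trem2 transcript took 86.0 ± 1.16% in controls and 88.7 ± 10.8% in nKO. The main Spp1 transcript took 87.1 ± 5.72% and 93.3 ± 4.14%, and the main Ctss transcript 91.8 ± 5.20% and 91.6 ± 2.27% (SD, n = 5 each). For Cd74 the main transcript took 65.4 ± 7.60% and 89.0 ± 10.8% (SD, n = 5 each), with 57.5% to 75.5% over the controls and 73.5% to 100% over the nKO libraries. That gene had only 23.1 to 73.5 estimated counts per library.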

How the data were processed

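Cortex RNA of 10 mice was sequenced, 5 per genotype, with 1 library per animal as the design text describes 5 biological replicates per group. Per the labels' protocols, RNA was extracted with TRIZOL, treated with DNase and made into stranded total RNA libraries with a shortened fragmentation. The build mm10 and the tools Salmon, bcl2fastq and DESeq2 appear in the submitters' processing notes with no version. Which annotation release was used is not stated in them.

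The authors deposited, per library, estimated counts per gene, TPM and effective lengths, as named in the file headers. Effective length is the length Salmon gives a transcript after weighing the fragments it can yield in that library, and TPM is divided by it while counts are not. A deposited score table was not used here, and its 10 per-sample columns were left out.

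Estimated counts were rounded to whole numbers and filtered with filterByExpr (minimum count 10, minimum total 15). After TMM scaling, genotypes were compared by edgeR 4.0.16 under R 4.3.3 (quasi-likelihood fit with robust estimation). P-values were adjusted by Benjamini-Hochberg across the 14378 genes kept, at a 5% threshold. Mean log2 CPM used a prior count of 2, and TPM was put on a log scale with 0.1 added. Intervals and floors of counts cover counting error or the spread between animals only. The script was tested on simulated data with known changes. Alternatives were DESeq2 1.42.0, limma-voom (limma 3.58.1), other scalings and filters, effective length offsets, a non-robust fit, each library left out, and control 1 and nKO 4 both left out. For the C1q chains, Trem2, Tmem119, Ctsd and Cst3 control 1 was the highest control and nKO 4 the lowest nKO library. Leaving both out raises the values of such genes by construction. For P2ry12, Gpr34, Siglech and Spp1 control 1 was the lowest control and nKO 4 the highest nKO library. Leaving both out lowers the values of these genes by construction. That setting is no independent check for either set of genes.

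The genes and lists were chosen with earlier results of these data known. Each library's value is given for the genes a rule named (20 genes, plus any with an unadjusted p under 0.05 or groups without overlap), and up to 3 genes with the smallest p for each other list. Cd63 is set beside Cd9 after its values were seen, and the ratio of Tyrobp to Trem2 and the contrast without Cd9 were also chosen then. Replicate numbers follow accession order and only name libraries. The labels give running numbers that are lower in all controls than in all nKO libraries, so a handling order and the genotype cannot be told apart. They give no batch, so no within-batch value exists. No 2 libraries held identical values. Positions came from RefSeq on GRCm38.p6, the assembly of mm10, by gene symbol, promoters from the same source for 26 of 36 genes, and coding sequence from GENCODE transcripts on GRCm38, matched by RefSeq name for all 36.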

Additional observations from a re-analysis of the deposited data

Results flagged for a closer look

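In a group of 5 libraries, a library was set apart when its gap to the nearest other library exceeded 0.71 of the group's whole range. This was so for 11 of 124 combinations of gene, genotype and unit examined, where chance flags about 5% of groups. Of the 11, 3 were C1q values in counts: control 1 stood apart at 31.4 CPM for C1qa and at 27.5 CPM for C1qc, and nKO 4 stood apart low at 16.6 CPM for C1qa. The effective lengths of these 2 libraries were also the extremes, as given in the report, and in TPM neither library stood apart for these genes. Csf1r in nKO 4 stood low at 66.0 CPM, against 79.7 to 83.1 in the other 4 nKO libraries. Irf8 in control 1 stood low at 2.94 TPM.

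In nKO 3, Sall1 stood high at 6.49 TPM against 4.71 to 5.15 in the other nKO libraries, C1qb stood low at 70.4 TPM against 79.3 to 80.8, and Ctss stood low at 51.4 CPM against 56.6 to 58.4. In nKO 5, Tyrobp stood high at 69.7 TPM against 60.0 to 62.2, and Fcrls stood high at 32.7 TPM against 27.0 to 28.3. Cd68 in control 3 stood low at 2.30 CPM against 3.57 to 3.93.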

How the results depend on the processing

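Under 20 other settings 0 of the 31 tested genes passed 5%, while over all genes DESeq2 called 5 in place of 2. The count at an unadjusted p under 0.05, 3 of 31, was 1 without control 1 and nKO 4, again 1 when effective length offsets were added to that (chosen after seeing the data), and 1 to 4 with single libraries left out, with 1 reached without control 1, control 5 or nKO 4. The complement median was 0.0206 without control 1 and nKO 4 and -0.22 to -0.0284 with single libraries left out, nearest 0 without control 1. The contrast of homeostatic and activation genes was 0.0322 without Cd9 (chosen after seeing the data), and -0.30 to -0.16 with single libraries left out.

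Of the 31 genes 18 changed sign under some setting, none of them farther than 0.20 from 0 in the fit reported. The log2 fold change of Aif1 was -0.00373 with DESeq2 size factors, -0.00926 with library size alone, -0.00536 by DESeq2, -0.00308 without a count filter and -0.00514 with a filter of CPM at least 1 in 5 libraries. With effective length offsets Ctss was -0.00807, Mrc1 -0.0169 and Irf8 0.00367. Without control 1 and nKO 4 Tmem119 was 0.0963, C1qa 0.0124, C1qb 0.00919, C1qc 0.0288, Itgam -0.0255, Aif1 -0.0506, H2-Ab1 -0.0139, Ctss -0.0395, Lpl -0.0327, Mrc1 -0.0789 and Ptprc -0.0602. With offsets added to that, Tmem119 was 0.0352, Itgam -0.0140, Aif1 -0.00278, H2-Ab1 -0.0906, Ctss -0.0196, Lpl -0.000499, Mrc1 -0.0551 and Ptprc -0.0209. The cause was not tested, beyond the effective lengths given in the report.

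With single libraries left out, the values ran from -0.0758 to 0.0618 for Aif1, -0.0271 to 0.13 for Axl, -0.0188 to 0.22 for C4b, -0.0265 to 0.0707 for Csf1r, -0.0267 to 0.0747 for Ctss, -0.17 to 0.0451 for Gpr34, -0.0776 to 0.13 for H2-Ab1, -0.0215 to 0.0722 for Itgam, -0.0286 to 0.0587 for Lpl, -0.10 to 0.0842 for Mrc1, -0.0667 to 0.0375 for Olfml3, -0.11 to 0.0618 for P2ry12 and -0.22 to 0.0256 for Tmem119. Over all settings the unadjusted p by edgeR, DESeq2 or limma-voom ran from 0.00281 to 0.129 for Cd9, 0.0194 to 0.158 for Trem2 and 0.0240 to 0.167 for Ctsd. For the 31 genes the SE had a median of 0.14 (log2), and the 5 genes under the count filter could not be tested at this depth. No paired analysis was possible because the labels give no pairing or litter and the replicate numbers only follow accession order.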
